A study of Homo sapiens with 10 samples.

Results

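The genes described here are 46 genes of mitotic entry, spindle assembly and chromosome segregation, chosen by name from a list of G2/M and mitosis genes. Each gene was read through the probe set that maps to its symbol alone and has the highest mean over the arrays. Of the 46 genes, 45 had such a probe set and all 45 entered the tests, among 10911 genes tested in all. NUF2, a subunit of the Ndc80 complex, had no probe set mapped to it alone and was not analysed here. Total RNA from T47D breast cancer cells, an established line of luminal type, was measured on 10 Affymetrix arrays, 1 array for each condition, so that no condition has a replicate of its own. All cells derive from T47D-Y, a subline of T47D that lacks the progesterone receptor (PR), and carry a vector system in which the dimerizer AP21967 switches on the insert. The iEV line carries empty vectors and is PR null, the iWT line carries wild type PR-B, and the iKR line carries PR-B with the substitution K388R (position counted along the receptor protein), which cannot be modified by SUMO at that site. All cells were selected with G418 and hygromycin B and starved of serum. AP21967 was given for 2 days and the synthetic progestin R5020 for 6 h, and ethanol served as vehicle for both. The iEV line was measured with and without AP21967, always without R5020. Lines iWT and iKR gave 4 arrays apiece, namely without either agent, with R5020, with AP21967, and with both. Concentrations were 1 nM AP21967 and 10 nM R5020 by the written methods, whereas the notation of the sample labels, read literally, gives 10 nM and 100 nM. Each vector is represented by 1 clonal line, so clone and vector cannot be told apart.

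Cells prepare for division in G2, when cyclin B and CDK1 are activated, and mitosis then proceeds through chromosome condensation, capture of chromosomes by spindle microtubules at kinetochores, checkpoint control, destruction of securin and cyclins by the anaphase-promoting complex, and cytokinesis. Transcripts of these genes accumulate together late in the cell cycle, through promoter elements named the cell cycle genes homology region (CHR) and the CCAAT box, which are bound by the MuvB and FOXM1 complexes and by NF-Y. In breast cancer the summed level of such transcripts is widely used as a measure of proliferation, and progestins are known to drive PR-positive breast cancer cells through an initial cell cycle and then to slow them.

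RefSeq (GRCh38.p14) gave a window around the gene start for 37 of the 45 measured genes, reaching from 250 bases before to 50 bases after it, and 5 of these are printed because they span what the results below turn on. CCNB1 and CDK1 encode the cyclin and the kinase of mitotic entry, CDC20 had the largest difference between the receptor lines, and ECT2 and CDC25B had the most negative R5020 responses in iKR and in iWT. Printed are the 250 bases before each start, 5′ to 3′, in lower case, with TTTGAA or TTTAAA (CHR) and CCAAT in capitals, each in either orientation. All 5 genes lie on the plus strand, at chr5:69166900-69167149 (CCNB1), chr10:60778081-60778330 (CDK1), chr1:43358731-43358980 (CDC20), chr3:172750476-172750725 (ECT2) and chr20:3786701-3786950 (CDC25B).
CCNB1: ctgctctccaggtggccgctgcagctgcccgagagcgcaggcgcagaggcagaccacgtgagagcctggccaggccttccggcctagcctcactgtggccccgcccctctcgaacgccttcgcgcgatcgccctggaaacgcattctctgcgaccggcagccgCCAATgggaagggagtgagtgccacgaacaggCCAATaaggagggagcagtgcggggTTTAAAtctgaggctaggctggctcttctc
CDK1: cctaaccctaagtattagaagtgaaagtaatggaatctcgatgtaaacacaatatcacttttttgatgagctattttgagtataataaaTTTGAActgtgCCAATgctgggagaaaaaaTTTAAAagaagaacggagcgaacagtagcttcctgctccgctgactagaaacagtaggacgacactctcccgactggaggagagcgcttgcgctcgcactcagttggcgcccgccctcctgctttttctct
CDC20: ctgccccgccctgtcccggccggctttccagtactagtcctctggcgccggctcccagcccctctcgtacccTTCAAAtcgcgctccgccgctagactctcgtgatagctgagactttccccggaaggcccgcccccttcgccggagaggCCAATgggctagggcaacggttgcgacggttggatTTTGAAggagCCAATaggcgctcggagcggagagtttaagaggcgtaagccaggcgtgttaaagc
ECT2: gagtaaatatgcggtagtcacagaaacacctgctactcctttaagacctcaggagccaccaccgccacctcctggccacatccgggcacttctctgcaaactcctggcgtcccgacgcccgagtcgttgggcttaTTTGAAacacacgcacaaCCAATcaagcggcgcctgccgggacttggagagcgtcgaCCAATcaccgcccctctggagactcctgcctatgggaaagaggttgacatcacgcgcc
CDC25B: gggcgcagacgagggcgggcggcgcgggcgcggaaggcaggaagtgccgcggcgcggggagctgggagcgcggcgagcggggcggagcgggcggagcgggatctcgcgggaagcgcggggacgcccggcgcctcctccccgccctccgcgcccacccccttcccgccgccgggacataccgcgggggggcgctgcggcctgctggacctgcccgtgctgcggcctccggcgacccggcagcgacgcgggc

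The motifs TTTGAA and TTTAAA were searched on both strands of the whole window, and at least 1 of them was present in 31 of the 37 windows (83.8%), against 24.3% of all 27305 RefSeq windows and 16.7% of the 8767 windows of genes tested here. TTTGAA alone was present in 24 (64.9%, against 15.4% of all windows) and TTTAAA in 14 (37.8%, against 12.3%). CCAAT was present in 28 windows (75.7%, against 35.7% of all), and 24 windows (64.9%, against 9.49% of all) held a CHR and a CCAAT. The CHR and CCAAT motifs can share at most 1 base. The CHR match nearest the start had a median position of -29 relative to it and lay within 100 bases in 29 of 31 genes. The CCAAT match nearest the start had a median position of -55.5. The E2F motifs TTTGGCGC and TTTCCCGC were present in 1 window (2.70%, against 2.31% of all and 3.49% of tested genes). The PR recognition hexamer AGAACA was present in 4 (10.8%, against 14.9% of all and 9.84% of tested genes). CDC25B, CDC25C, AURKB, BUB1, NEK2 and CCNA2 had no CHR in these windows, and CDC25B and CDC25C had no CCAAT either. A match is a description of the letters in the window, and a missing match says only that these letters are not in it.

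Values are RMA signals on the log2 scale, on which a difference of 1 is a 2-fold difference, and they compare arrays for 1 gene and not genes with each other. All 45 genes had a mean over the 10 arrays of log2 8.06 or more. Keratins 8, 18 and 19, which mark luminal epithelium, read between 14.3 and 15.04 on all arrays. All 10 luminal markers reached log2 6, the lowest being TFF1 at 7.38 to 7.87. So did 4 of 6 fibroblast, 4 of 4 leukocyte and 3 of 4 endothelium markers, so reaching log2 6 does not separate the cell types. Of the markers of other cell types, the highest readings were 9.77 (COL1A1, fibroblast), 8.29 (leukocyte) and 7.72 (endothelium). COL1A1 stayed between 9.59 and 9.77 on all arrays, above the array medians of 8.12 to 8.15, and the cause of that reading was not tested. Array signal near the low end includes probe background. PGR, the gene of the receptor, read 6.25 and 6.17 in iEV, and 10.65 or more on every iWT and iKR array, also without AP21967. It was 11.12 in iWT and 10.65 in iKR without either agent, and 11.34 and 12.08 with AP21967. With R5020, PGR read 11.77 without and 11.89 with AP21967 in iWT, and 11.43 without and 11.38 with AP21967 in iKR.

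The mean level of the 45 mitosis genes was highest in iEV, intermediate in iKR and lowest in iWT, on every array. It was 10.32 in iEV without and 10.39 with AP21967. In iKR it was 10.05 without either agent, 10.06 with R5020, 10.21 with AP21967 and 9.98 with both. In iWT the corresponding means were 9.55, 9.57, 9.73 and 9.60. No iWT array reached the lowest iKR array, and no iKR array reached iEV. The mean over all genes tested stayed between 8.95 and 8.98. In RNA from a whole culture, fewer dividing cells and less of each transcript per cell cannot be told apart.

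**Figure D1:**
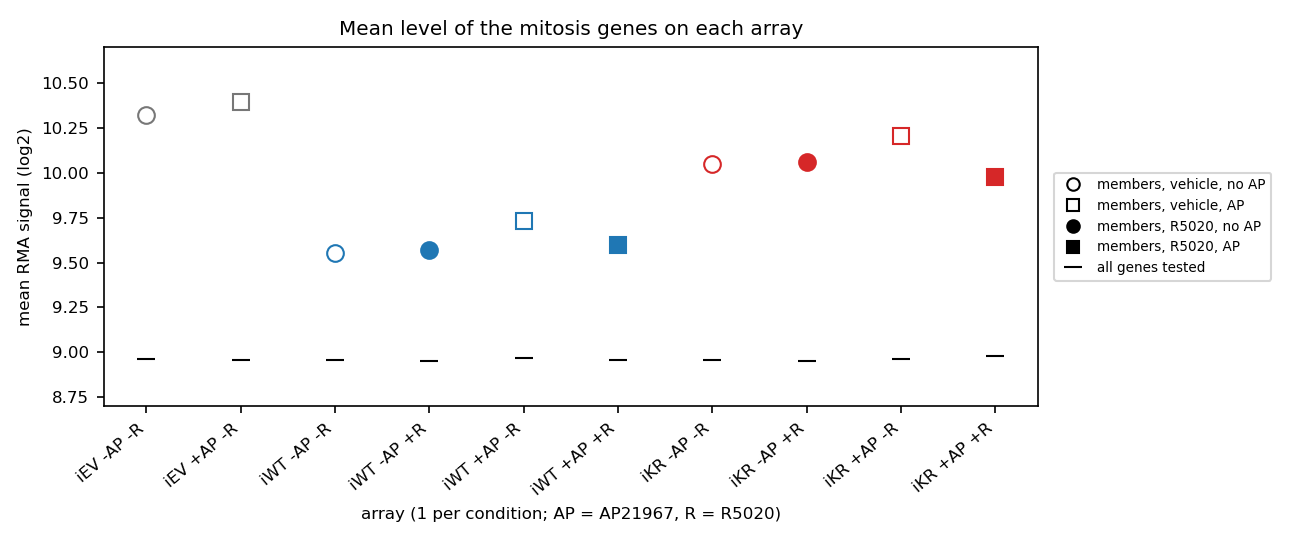
Mean RMA signal (log2) of the 45 mitosis genes on each of the 10 arrays, coloured by line (grey iEV, blue iWT, red iKR), with squares for AP21967 and filled symbols for R5020; dashes show the mean of all genes tested. The iEV arrays sit at 10.32 and 10.39, the iKR arrays between 9.98 and 10.21, and the iWT arrays between 9.55 and 9.73.

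**Figure D2:**
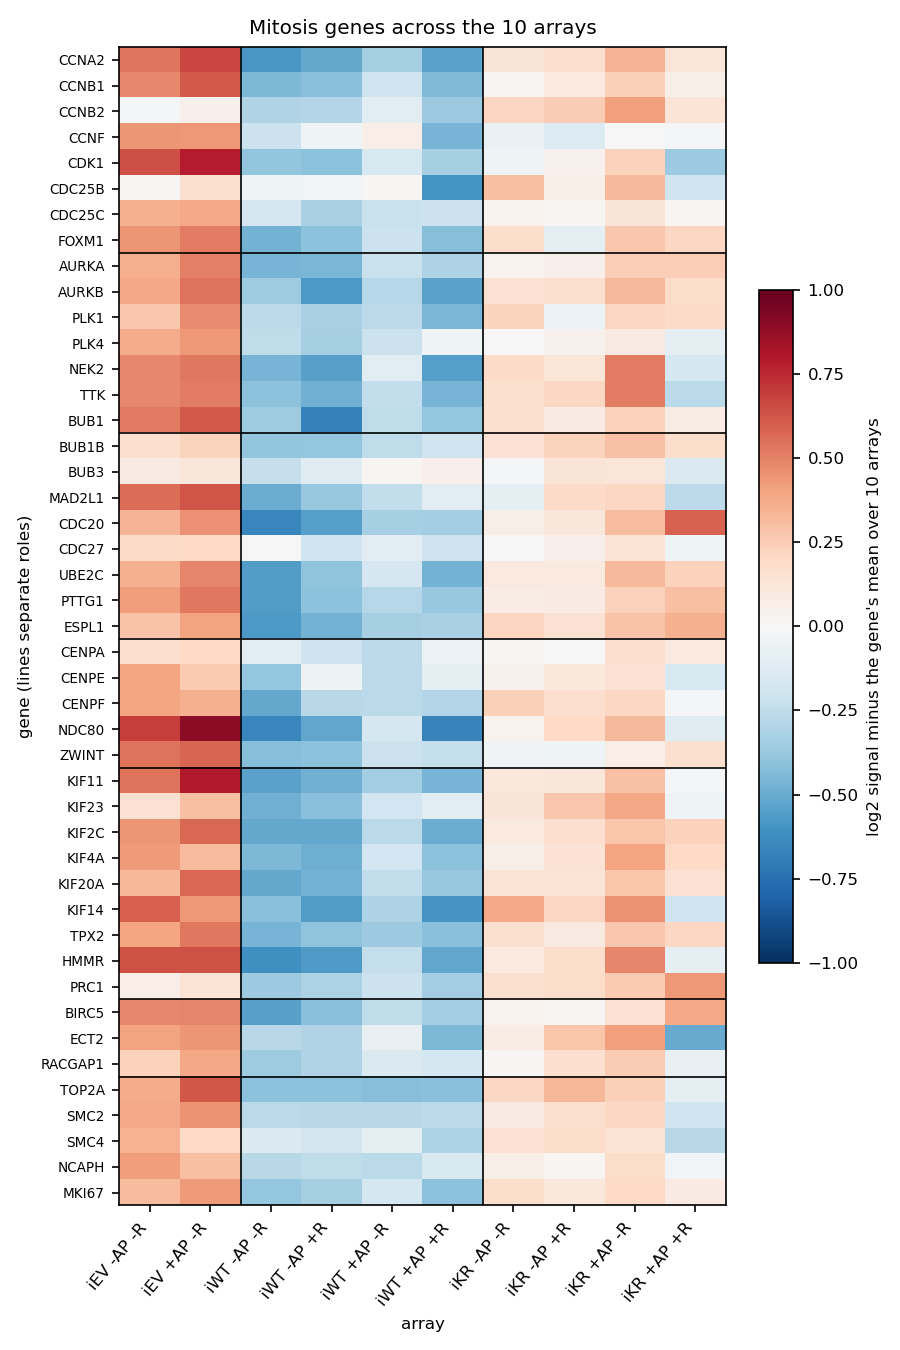
Log2 signal of each of the 45 genes minus its own mean over the 10 arrays, with arrays in columns (vertical lines separate iEV, iWT and iKR) and genes in rows, grouped by role in the order mitotic entry, mitotic kinases, spindle checkpoint and anaphase, kinetochore and centromere, kinesins and spindle, chromosomal passenger and cytokinesis, chromosome structure and proliferation. Most rows are high in iEV and low in iWT, and in the rows of CCNB2 and PRC1 all 4 iKR arrays exceed iEV.

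The iWT line, compared with iEV over the vehicle arrays, asks how cells with the wild type receptor gene stand before any progestin. In that comparison 43 of the 45 genes fell and none rose (limma, adjusted p under 0.05), whereas 11.8% of all genes tested fell and 12.0% rose. The median difference of the 45 genes was -0.78, and that of all genes was 0.01. NDC80, which encodes the microtubule-binding subunit of the outer kinetochore, had the largest difference. It read 9.76 and 9.96 in iEV and 8.42 and 8.89 in iWT, so that the lines did not overlap, and the fitted difference was -1.21 (SE 0.07, adjusted p = 4.7e-05 from limma). KIF11, the motor that pushes spindle poles apart, fell by 1.11. HMMR, a spindle-associated hyaluronan receptor, fell by 1.06, CCNA2, a cyclin A, fell by 1.06, and CDK1 fell by 1.00. Falls of similar size were seen for MAD2L1, a checkpoint protein that restrains CDC20 (-0.96), TOP2A, the topoisomerase that untangles sister DNA (-0.91), PTTG1, the securin (-0.90), and KIF2C, a microtubule depolymerase (-0.90).

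The general proliferation markers were lower as well. MKI67, the Ki-67 antigen, read 9.91 and 10.02 in iEV and 9.20 and 9.42 in iWT (-0.66, SE 0.06, adjusted p = 0.00038 from limma). FOXM1, a transcription factor of the late cell cycle, read 10.48 and 10.55 in iEV and 9.56 and 9.82 in iWT (-0.82, SE 0.07, adjusted p = 0.00015 from limma). PLK1, the kinase that acts from mitotic entry to cytokinesis, read 9.17 and 9.37 in iEV and 8.63 and 8.63 in iWT (-0.64, SE 0.07, adjusted p = 0.0006 from limma). By role, 7 of 8 genes of mitotic entry fell, as did 7 of 7 mitotic kinases, 7 of 8 checkpoint and anaphase genes, 5 of 5 kinetochore genes, 9 of 9 kinesin and spindle genes, 3 of 3 passenger and cytokinesis genes and 5 of 5 chromosome structure genes. The 2 genes that did not pass were BUB3, a checkpoint protein (-0.21, adjusted p = 0.066 from limma), and CDC25B, the phosphatase that starts CDK1 activation (-0.10, adjusted p = 0.30). Both iEV arrays lay above all 4 iWT arrays for 44 of the 45 genes, the exception being CDC25B, against 20.5% of all genes tested. The median difference was -0.84 in cells without AP21967 and -0.73 in cells with it.

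The iKR line stood closer to iEV. Of the 45 genes 24 fell and 2 rose relative to iEV, against 12.8% and 12.9% of all genes, with a median of -0.23. CDK1 (-0.62, SE 0.06, adjusted p = 0.00032 from limma) and NDC80 (-0.62) fell most, followed by ZWINT, a kinetochore protein (-0.55), MAD2L1 (-0.54) and CCNF, a cyclin-like ubiquitin ligase subunit (-0.48). The genes that rose were CCNB2, a B-type cyclin (0.30, SE 0.06, adjusted p = 0.011), and CDC25B (0.23, SE 0.06, adjusted p = 0.027). CCNB2 read 10.95 and 11.01 in iEV, between 11.10 and 11.37 in iKR and between 10.59 and 10.85 in iWT, and so lay in 3 separate ranges. PRC1, which bundles the microtubules of the spindle midzone, was higher on all 4 iKR arrays than in iEV, but its fitted difference did not pass (0.11, adjusted p = 0.22). These 2 genes, CCNB2 and PRC1, were the ones for which iKR lay above iEV on every array, against 20.7% of all genes, while 30 of 45 lay below iEV on every array, against 19.4%.

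**Figure D3:**
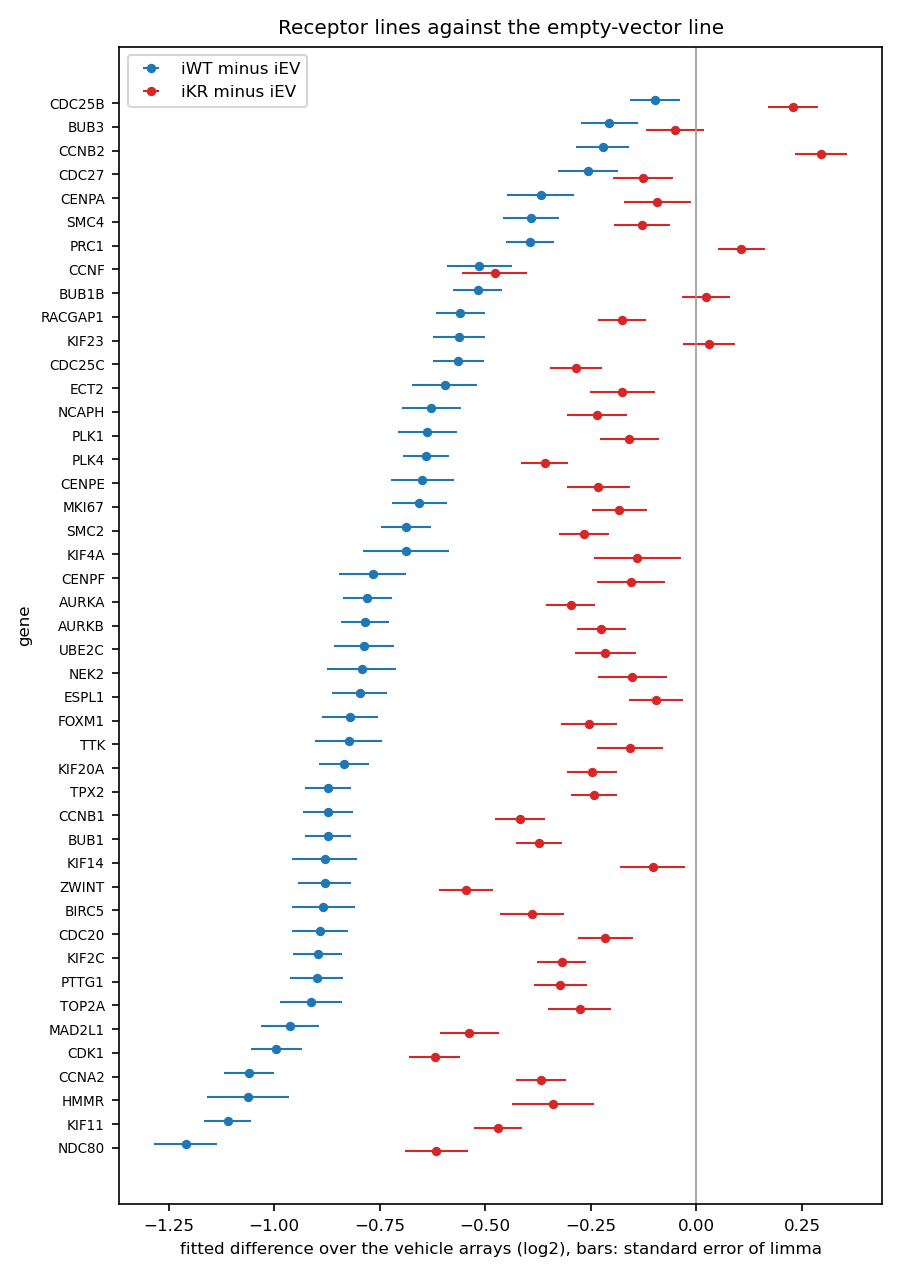
Fitted log2 differences of iWT (blue) and iKR (red) from iEV over the 6 vehicle arrays for each of the 45 genes, ordered by the iWT difference; bars are the standard errors of limma. The iWT differences run from -1.21 (NDC80) to -0.10 (CDC25B), and the iKR differences from -0.62 to 0.30 (CCNB2).

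When the lines with a receptor were compared directly over their 4 matched conditions, 35 of 45 genes were higher in iKR and none was lower (limma, adjusted p under 0.05), against 4.18% of all genes higher and 2.69% lower. The median difference was 0.52. CDC20, the activator of the anaphase-promoting complex, differed most. It read 9.12, 9.22, 9.45 and 9.44 in iWT (without either agent, with R5020, with AP21967 and with both) and 9.84, 9.89, 10.09 and 10.37 in iKR, and all iKR arrays lay above all iWT arrays (0.74, SE 0.06, adjusted p = 0.00055 from limma). CCNA2 followed with 0.68, as did KIF14, a kinesin of the cleavage site (0.68), ESPL1, the separase that cleaves cohesin (0.68), and HMMR (0.65). AURKB, the kinase of the chromosomal passenger complex, differed by 0.64, TPX2, which activates Aurora A on the spindle, by 0.59, MKI67 by 0.47 and CCNB1 by 0.48. All 9 kinesin and spindle genes were called, as were 6 of 8 genes of mitotic entry, 6 of 7 kinases, 5 of 8 checkpoint and anaphase genes, 3 of 5 kinetochore genes, 2 of 3 passenger and cytokinesis genes and 4 of 5 chromosome structure genes.

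The smallest differences between iKR and iWT were those of BUB3 (0.09, adjusted p = 0.56 from limma), CCNF (0.11, adjusted p = 0.56) and CDC27, a core subunit of the anaphase-promoting complex (0.17, adjusted p = 0.13). For 33 of the 45 genes the 4 iKR arrays lay above all 4 iWT arrays, against 5.89% of all genes. The median difference was 0.52 without either agent, 0.50 with R5020, 0.48 with AP21967 and 0.42 with both, so it was also present without the inducer. Leaving out 1 of the 4 matched conditions gave between 28 genes higher in iKR, against 1.78% of all genes, and 43 genes, against 6.70%. These tests treat conditions of 1 clone as replicates.

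AP21967 alone, over the 6 arrays without R5020, called none of the 45 genes and none of the 10911 genes (0% in either direction) in limma at an adjusted p under 0.05. Before adjustment, 26 of the 45 genes were higher and none was lower at p under 0.05, against 501 and 480 of all genes. The fitted difference was above 0 for 44 of the 45 genes, with a median of 0.14 against 0.00 for all genes, and SMC4, a condensin subunit, was the exception (-0.04). The highest values were those of NDC80 (0.32, SE 0.06), HMMR (0.26), UBE2C, the ubiquitin-conjugating enzyme of the anaphase-promoting complex (0.25), NEK2, a centrosome kinase (0.24), and CDC20 (0.23). The lowest adjusted p among the 45 genes was 0.48. NDC80 read 9.76 without and 9.96 with AP21967 in iEV, 8.42 and 8.89 in iWT, and 9.10 and 9.39 in iKR, a difference in the same direction in each line.

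The AP21967 difference was above 0 for most of the 45 genes in the line without receptor too, read in each line from 1 pair of arrays. In iEV, 37 of 45 genes read higher with AP21967 than without, with a median of 0.07, against 47.7% of all genes. In iWT it was 40 of 45 with a median of 0.21, against 55.2% of all genes. In iKR it was 42 of 45 with a median of 0.14, against 48.8%. Whether the lines differ in the AP21967 difference was not tested. Among the arrays with R5020 the AP21967 difference had a median of 0.02 in iWT and -0.05 in iKR.

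R5020 in cells without the inducer called none of the 45 genes in either direction, against 0.00917% of all genes higher (1 gene) and 0% lower in limma. The median difference was 0.03, with 29 genes above 0 and 16 below. At an unadjusted p under 0.05, 217 of all 10911 genes were lower and 214 higher, and of the 45 genes 1 was lower and none higher. That gene was BUB1, a checkpoint kinase of the kinetochore, which read 7.98 without and 7.66 with R5020 in iWT and 8.49 and 8.42 in iKR (-0.20). The other low values were those of PLK1 (-0.17), KIF14 (-0.16), CDC25B (-0.12) and FOXM1 (-0.10). At the other end stood MAD2L1 (0.20), CENPE, a kinetochore motor (0.20), NDC80 (0.15), BUB3 (0.13) and RACGAP1, a subunit of centralspindlin (0.10). As given above, PGR was read on these arrays at levels far above iEV.

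R5020 in cells given AP21967 asks for the response to the liganded receptor, with the iWT and iKR lines standing as replicates of a shared response. Of the 45 genes 9 fell and none rose, against 6.25% of all genes lower and 5.23% higher. The median of the 45 genes was -0.17, with 39 below 0, and that of all genes was 0.01. Genes that fell came from 6 of the 7 roles, namely CDK1 and CDC25B of mitotic entry, the kinases NEK2 and TTK, the kinetochore gene NDC80, the spindle genes KIF14 and HMMR, the cytokinesis gene ECT2 and the condensin gene SMC4. None of the 8 genes grouped as checkpoint and anaphase was called, whereas TTK, which also acts in the spindle checkpoint, was counted with the kinases. The vehicle arrays with AP21967 that serve as reference here are the same arrays that carried the higher values in the AP21967 comparison.

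**Figure D4:**
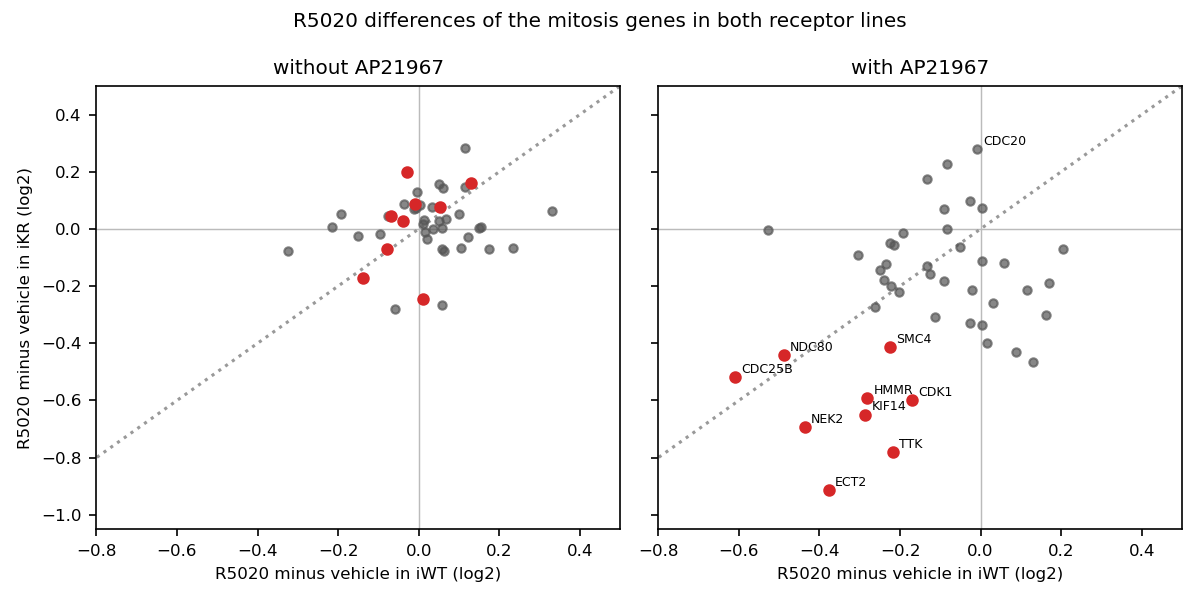
R5020 minus vehicle (log2) of each of the 45 genes in iWT (horizontal) and iKR (vertical), without AP21967 (left) and with it (right); red points are the 9 genes called for the R5020 effect with AP21967, and the dotted line marks equal values. Without AP21967 the points surround 0, and with it the called genes lie below 0 on both axes, with ECT2 lowest in iKR at -0.92 and CDC25B lowest in iWT at -0.61.

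NEK2 read 9.18 without either agent, 9.10 with R5020, 9.53 with AP21967 and 9.10 with both in iWT, and 9.84, 9.77, 10.16 and 9.47 in the same order in iKR. Its fitted R5020 effect in induced cells was -0.56 (SE 0.09, adjusted p = 0.0042 from limma). In iKR the array with both agents was the lowest of the 4, while in iWT it lay level with the array given R5020 alone.

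CDC25B read 11.06, 11.07, 11.11 and 10.51 in iWT and 11.40, 11.16, 11.42 and 10.91 in iKR, in the same order of conditions (-0.56, SE 0.09, adjusted p = 0.0046 from limma). The array with both agents stood below all others in each line, and below both iEV arrays (11.11 and 11.26). For CDC25B, cells given AP21967 alone differed from cells without either agent by 0.05 in iWT and 0.02 in iKR.

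NDC80 read 8.42, 8.55, 8.89 and 8.40 in iWT and 9.10, 9.26, 9.39 and 8.95 in iKR (-0.46, SE 0.08, adjusted p = 0.0057 from limma). ECT2, the exchange factor that activates RhoA for the cleavage furrow, read 10.25, 10.22, 10.45 and 10.07 in iWT and 10.60, 10.80, 10.94 and 10.02 in iKR (-0.65, SE 0.12, adjusted p = 0.012 from limma). ECT2 in iKR fell from the highest of the 4 arrays to the lowest, ending at the level of iWT.

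KIF14 read 7.91, 7.77, 8.03 and 7.74 in iWT and 8.71, 8.54, 8.78 and 8.13 in iKR (-0.47, SE 0.10, adjusted p = 0.016 from limma). HMMR read 9.53, 9.58, 9.91 and 9.63 in iWT and 10.25, 10.33, 10.64 and 10.05 in iKR (-0.44, SE 0.09, adjusted p = 0.017). In iWT the HMMR array with both agents remained above the arrays without AP21967, and in iKR it lay below them.

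TTK, the Mps1 kinase of the spindle checkpoint, read 8.62, 8.55, 8.78 and 8.57 in iWT and 9.19, 9.24, 9.54 and 8.76 in iKR (-0.50, SE 0.12, adjusted p = 0.031 from limma). SMC4 read 10.95, 10.91, 11.00 and 10.78 in iWT and 11.25, 11.28, 11.23 and 10.82 in iKR (-0.32, SE 0.08, adjusted p = 0.039). SMC4 was lowest on the array with both agents in each line, and the 3 other arrays of a line lay within 0.1 of each other.

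CDK1 was at the threshold (-0.38, SE 0.11, adjusted p = 0.049 from limma). It read 11.15, 11.14, 11.39 and 11.22 in iWT and 11.51, 11.59, 11.78 and 11.18 in iKR, so that the array with both agents was lowest in iKR but not in iWT. CCNB2 lay just outside the threshold (-0.27, adjusted p = 0.054).

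**Figure D5:**
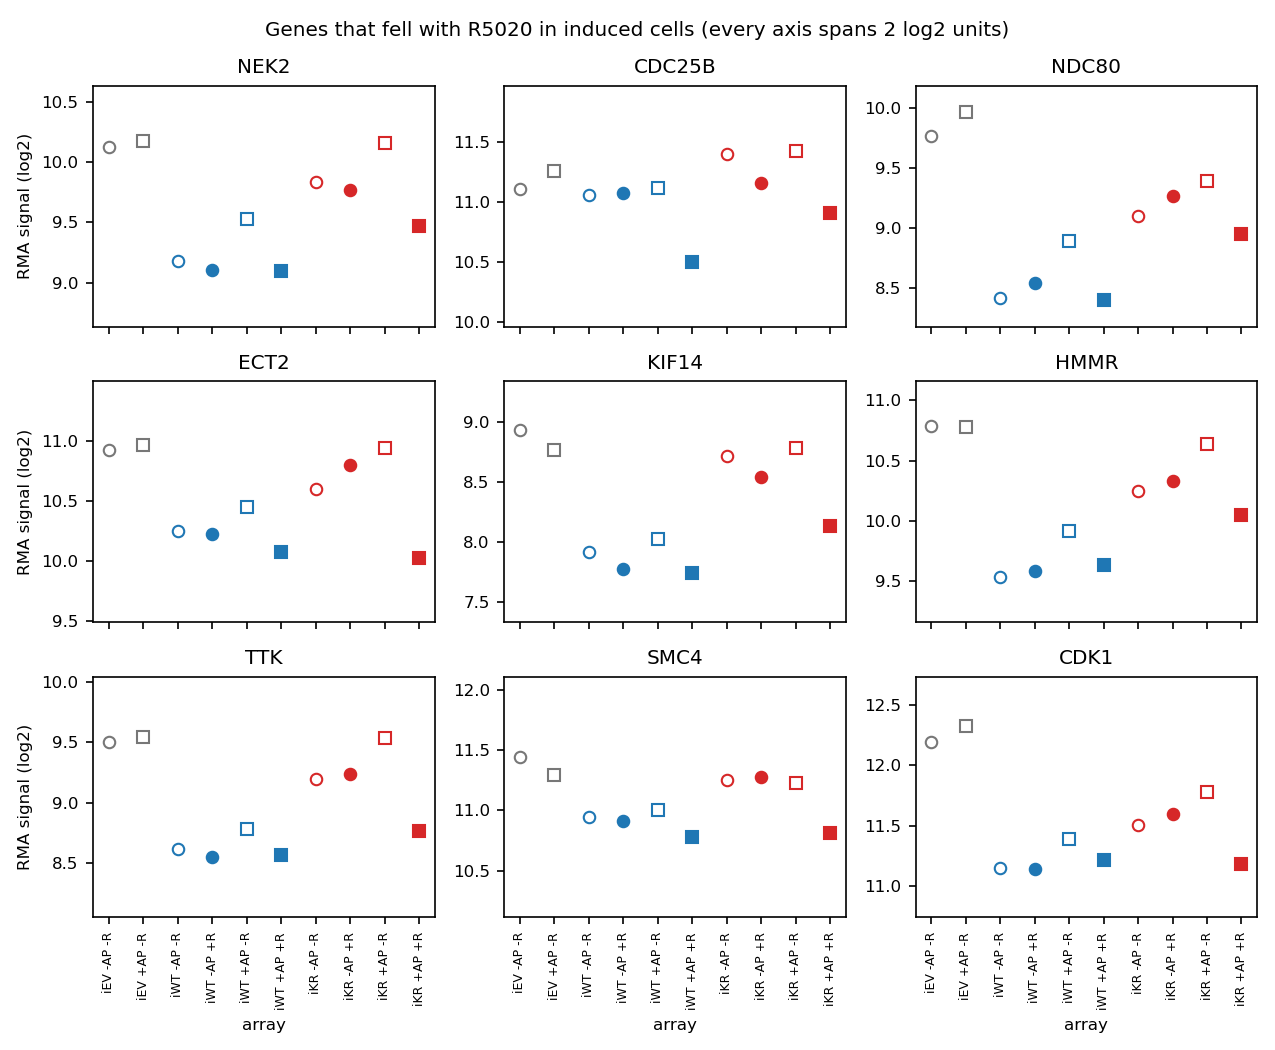
RMA signal (log2) on each array of the 9 genes that fell with R5020 in cells given AP21967, with grey for iEV, blue for iWT, red for iKR, squares for AP21967 and filled symbols for R5020. In each panel the filled square of a line lies below the open square of that line, and in iKR it is the lowest of the 4 red symbols.

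The other genes of the core list gave values without a call. CCNB1 read 10.33, 10.36, 10.58 and 10.34 in iWT and 10.80, 10.88, 11.02 and 10.84 in iKR (-0.21, SE 0.08, adjusted p = 0.12 from limma). MKI67 read 9.20, 9.27, 9.42 and 9.18 in iWT and 9.77, 9.70, 9.80 and 9.67 in iKR (-0.18, adjusted p = 0.20). TOP2A read 10.10, 10.10, 10.09 and 10.09 in iWT and 10.72, 10.84, 10.75 and 10.41 in iKR, with R5020 differences in induced cells of 0.00 in iWT and -0.34 in iKR (fitted -0.17, adjusted p = 0.32 from limma). FOXM1 (-0.14, adjusted p = 0.41) and PLK1 (-0.10, adjusted p = 0.51) were nearer to 0. At the upper end were CDC20 (0.14), BIRC5, the survivin of the chromosomal passenger complex (0.07), CENPA, the centromeric histone (0.07), ESPL1 (0.04) and ZWINT (0.04), with adjusted p values from 0.38 to 0.82.

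The size of the R5020 difference was read in each line from 1 pair of arrays and has no replicate check. Its median was -0.13 in iWT, where 33 of 45 genes were below 0, and -0.19 in iKR, where 38 were below 0, against -0.02 and 0.03 for all genes. In iKR 6 genes (CDK1, NEK2, TTK, KIF14, HMMR and ECT2) were more than 1.5-fold lower, against 3.16% of all genes, and in iWT 1 gene (CDC25B), against 1.02%. Other probe sets of CDK1 (-0.08 and -0.055), NEK2 (-0.17) and HMMR (-0.50) were not 1.5-fold lower in iKR. For TTK, KIF14, ECT2 and CDC25B there was 1 probe set each, so no second reading. CDC20 differed by 0.28 in iKR and -0.01 in iWT. CCNF showed the opposite order, with -0.53 in iWT and 0.00 in iKR, and read 9.84 without and 9.32 with R5020 in induced iWT cells.

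The difference between the R5020 effect with and without AP21967 was called for 1 of the 45 genes, NDC80 (-0.61, SE 0.11, adjusted p = 0.026 from limma), against 0.687% of all genes lower and 1.41% higher. Before adjustment, at p under 0.05, 12 of the 45 genes were lower and none was higher, against 764 lower and 847 higher of all 10911 genes. The median of the 45 genes was -0.22, and that of all genes was 0.00. ECT2 had the most negative value (-0.73, SE 0.18, adjusted p = 0.077), followed after NDC80 by HMMR (-0.50), NEK2 (-0.49) and TTK (-0.49). The highest were CENPA (0.13), PLK1 (0.07), BUB1 (0.06), CDC20 (0.06) and ZWINT (0.03).

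Which arrays served as reference mattered for the R5020 result. When the array with both agents was set against all 3 other arrays of its line, a comparison added after the data were seen, CDC25B, ECT2, KIF14 and SMC4 were called lower and CDK1, HMMR, NDC80, NEK2 and TTK were not. These 4 of 45 genes stood against 10.4% of all genes called lower in that comparison, a share no smaller than that of the members, and the median of the 45 genes was -0.05. Against the array without either agent, the array with both had a median difference of 0.04 in iWT and -0.08 in iKR. With cyclic loess normalization 5 of the 45 genes were called lower, against 5.13% of all genes.

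Other probe sets of the same genes gave a second reading for 19 of the 45 genes, with 35 probe sets. All 35 had the sign of the main probe set for iWT against iEV and for iKR against iWT, 30 had it for AP21967, and 22 had it for R5020 in induced cells. For CDK1 the other 2 probe sets gave R5020 differences of -0.09 and -0.11 (mean of both lines), against -0.38 for the main one. The second probe sets of NEK2 (-0.32) and HMMR (-0.28) were lower with R5020, as was one of the others of SMC4 (-0.30). TOP2A and CCNA2, which were not called, had second probe sets at -0.48 and -0.44. NDC80, CDC25B, ECT2, KIF14 and TTK were read by 1 probe set each.

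Of the 9 genes that fell with R5020 in induced cells, 8 had a promoter window, of which 6 held a CHR, 5 a CCAAT, 4 both and 1 (NEK2) the hexamer AGAACA. The printed CDC25B and ECT2 sequences show the range, with neither motif in CDC25B and both in ECT2.

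Related cell cycle genes that are not in the list were counted in the same tests, in which 5.23% of all genes rose and 6.25% fell with R5020 in induced cells. A single call in a list of 10 to 27 genes, or 2 calls of 27, is near these shares. None of 20 other kinetochore genes and none of 10 anaphase-promoting complex genes was called. Of 27 other spindle and kinesin genes 1 rose (TRIP13) and 2 fell (ASPM and DLGAP5). Of 14 condensin and cohesin genes 1 rose (NCAPD3) and 2 fell (SMC1A and STAG2). Of 13 DREAM, MuvB and E2F regulators 1 rose (E2F3) and 1 fell (LIN37), and of 11 mitotic kinase partners and inhibitors 1 rose (CDC25A). Of 24 DNA replication genes 3 rose (CDC6, GINS2 and MCM10) and none fell, and of 11 G1 cyclins and inhibitors 2 rose (CCND1 and CCNE1) and 1 fell (CDKN1B). By smallest p the genes were LIN37, a MuvB subunit (-0.55, adjusted p = 0.0026 from limma), CDKN1B, the CDK inhibitor p27 (-0.75, adjusted p = 0.0046), TRIP13, an ATPase that remodels MAD2 (0.47), CCND1, cyclin D1 (0.74, adjusted p = 0.0083), CCNE1, cyclin E1 (0.43), and CDC6, which loads the replicative helicase (0.43).

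The line differences varied between these lists. In iWT against iEV, where 11.8% of all genes fell and 12.0% rose, 24 of 27 other spindle and kinesin genes fell and none rose, 19 of 24 DNA replication genes fell and none rose, and 13 of 20 other kinetochore genes fell and 1 rose. Of the 11 mitotic kinase partners and inhibitors 6 fell and 1 rose, of the 14 condensin and cohesin genes 6 fell and 1 rose, of the 13 DREAM, MuvB and E2F regulators 5 fell and 1 rose, and of the 11 G1 cyclins and inhibitors 5 fell and 1 rose. The anaphase-promoting complex had the smallest count, with 2 of 10 genes that fell and none that rose. In iKR against iWT, where 4.18% of all genes were higher and 2.69% lower, the genes called higher were 19 of 27 spindle and kinesin, 10 of 24 DNA replication, 8 of 20 kinetochore and 5 of 11 kinase partner genes. In the same comparison 2 of 10 anaphase-promoting complex genes, 2 of 14 condensin and cohesin genes, 1 of 13 DREAM, MuvB and E2F regulators and none of the 11 G1 cyclins and inhibitors were called higher, and no gene of the 8 lists was called lower.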

How the data were processed

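Total RNA of 10 cultures was hybridised to Affymetrix arrays, 1 per condition. The authors background-corrected and quantile-normalised the raw files together by RMA (Robust Multi-array Average), so the values they deposited are log2 signals of probe sets (array medians 8.12 to 8.15). No scan date or batch was used here, and with arrays the number of arrays limits precision. The 22277 probe sets divide into 19070 that name a single gene, 1043 that name several and 2164 that name none. For each of 11963 genes the brightest probe set on average was taken, and the 10911 genes that reached log2 6 on at least 1 array were tested.

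Linear models were fitted with limma 3.58.1 in R 4.3.3, with Benjamini-Hochberg adjustment over all genes and a threshold of 0.05. R5020 effects used the 8 iWT and iKR arrays with line and inducer state as blocks (2 residual degrees of freedom), AP21967 and differences from iEV used the 6 vehicle arrays (2), and iKR against iWT used the 8 arrays with the condition as block (3). Lines or conditions of 1 clone stand as replicates, so p-values measure only the spread between these arrays, and a response that differs between iWT and iKR goes to the residual. On simulated data for the R5020 effect with AP21967 (10911 genes, 200 changed) 98% of 1.5-fold changes were recovered, with 10.76% false among the calls. For the inducer-dependent R5020 effect 70% of 1.5-fold changes were recovered, with 2.63% false among the calls.

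The members and all lists were chosen with earlier results of these data known. Named were the members called (up to 10 by p per direction), the 5 most extreme in each direction, and CCNB1, CDK1, MKI67, TOP2A, FOXM1 and PLK1; genes of related lists were named where called for R5020 in induced cells (up to 6 by p). Other genes and probe sets named were chosen after their values were seen. Alternatives were another level filter, other probe set rules, cyclic loess, median centring, limma's trend and robust prior, all arrays in 1 fit, and leaving out a line or condition. Promoter windows are RefSeq's (GRCh38.p14).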

Additional observations from a re-analysis of the deposited data

Results flagged for a closer look

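For 5 genes the R5020 difference in induced cells went in opposite directions in iWT and iKR, by more than 0.1 on the log2 scale in each line, from 1 pair of arrays per line, and the difference between the lines was not tested. PLK4, the kinase that starts centriole duplication, differed by 0.17 in iWT and -0.19 in iKR. MAD2L1 differed by 0.13 and -0.46, and CENPE by 0.16 and -0.30. NCAPH, a condensin subunit, differed by 0.11 and -0.21. PRC1 was the one with the opposite order, at -0.13 in iWT and 0.17 in iKR.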

How the results depend on the processing

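Pairing by replicate number was not possible, because every condition has 1 array with the same replicate number. Pairing by line or condition was part of the fits reported. For R5020 in induced cells the number of members that fell was 9. It was 5 with cyclic loess (5.13% of all genes). Against the 3 other arrays of the same line, an alternative chosen after seeing the data, it was 4 (10.4% of all genes). It was 8 of the 28 members testable without _x_at and _s_at probe sets, against 462 of 7241 genes. In the other alternatives it was 8 to 10 of 45, against between 592 of 10705 and 841 of 10911 genes called lower. Without probe sets of the _x_at and _s_at types 28 members could be tested, of which 27 fell in iWT against iEV (10.6% of all genes), 12 fell and 1 rose in iKR against iEV (11.5% and 10.9%) and 19 were higher in iKR than in iWT (3.56%). With all 10 arrays in 1 fit, 1 member rose in iKR against iEV (CCNB2; 11.5% of all genes), CDC25B having an adjusted p of 0.092. Leaving out 1 matched condition gave 28 to 43 members higher in iKR (1.78% and 6.70% of all genes), and leaving out 1 line gave 0 to 0 members called for AP21967. CDK1 was called in 5 of its 8 alternatives (adjusted p 0.019 to 0.17 from limma), HMMR in 5 of 8 (0.0072 to 0.29), TTK in 6 of 8 (0.020 to 0.080), SMC4 in 6 of 8 (0.0073 to 0.13), NDC80 and NEK2 in 7 of 8, and CDC25B, ECT2 and KIF14 in all run (7, 7 and 8). Signs turned for values near 0: for AP21967 without iEV, PLK1 (-0.0088, over left-out lines up to 0.10) and SMC4 (0.016, down to -0.086); for the inducer-dependent effect, BUB1 with the mean of probe sets (-0.029) and ZWINT with median centring (-0.0026); for R5020 with AP21967, FOXM1 against the 3 other arrays (0.014); for R5020 without AP21967, BUB1 with the mean of probe sets (0.033) and MKI67 with cyclic loess (0.016) and median centring (0.0064); for iKR against iEV, KIF23 with all 10 arrays (-0.024). The cause was not tested. The lowest mean of these genes was log2 8.06, near the array medians of 8.12 to 8.15. CD3E, a leukocyte marker, read 8.09 to 8.29. How far probe background enters the lowest readings was not tested, and every condition has 1 array.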
